A study of Mus musculus with 23 samples.

Results

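Hippocampi of mice with the P301S tau transgene that had been exposed to hypoxia (6 libraries) were compared with hippocampi of wild-type (WT) mice exposed to the same condition (6 libraries). The members were chosen from the genotype and condition labels alone, and they make up 12 of the 23 libraries of the series. The other 11 libraries come from WT mice (6) and P301S mice (5) in normoxia, and are used here to set the same genotype difference in normal air beside that in hypoxia. All mice are labelled as having a mixed background of C57Bl6 and Balbc, and the tissue as whole hippocampus, frozen before RNA extraction. The series title calls the exposure chronic intermittent hypoxia, the pattern of oxygen loss seen in sleep apnoea, and names tau accumulation, memory and molecular signatures as its subject. Sources used here leave out how old the mice were, their sex, the hypoxia regimen, and the line and promoter of the transgene. Whether every library came from its own animal is not stated either, so the p-values describe spread among libraries that may in part be technical. Titles carry an unexplained number, which is 31 in WT hypoxia replicates 1 to 4 and 32 in replicates 5 and 6, and differs between all the P301S hypoxia libraries.

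Tau is a protein that binds microtubules in axons, and P301S is a mutation of human MAPT found in familial frontotemporal dementia. Mice that carry it form phosphorylated tau aggregates in neurons, lose synapses and later lose neurons, with the hippocampus among the regions affected. Intermittent hypoxia raises oxidative stress and changes neuronal activity, and cells meet a lack of oxygen through the HIF transcription factors and misfolded proteins through the unfolded protein response of the endoplasmic reticulum (ER).

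Levels are given in CPM, the counts of a gene relative to the size of its library (edgeR, TMM scaling), as the lowest, the median and the highest of the 6 libraries of a group. Differences are log2 fold changes of P301S hypoxia over WT hypoxia with their standard errors (SE). Tests are edgeR's quasi-likelihood tests with Benjamini-Hochberg adjustment over the 17788 tested genes, and a gene is called at a value below 0.05. Total counts ran from 19.1 to 24.9 M in WT hypoxia and from 23.8 to 25.8 M in P301S hypoxia. Mitochondrial genes took 2.14% to 2.5% of the counts in WT and 2.35% to 2.99% in P301S. The 30 pairs of libraries within the groups correlated at 0.977 to 0.99 and all differed by more than sampling noise. Markers of hippocampal cells were present throughout: Prox1 of dentate granule cells ran from 89.6 to 178 CPM and Wfs1 of CA1 pyramidal cells from 149 to 254 CPM over the 12 libraries. Markers of choroid plexus, a neighbouring tissue, varied widely in both groups, and 3 WT and 2 P301S hypoxia libraries were among the 6 lowest of the series. The mean log2 level of the 16 tested choroid markers spanned -2.22 to 2.22 over the WT libraries and -1.98 to 1.82 over the P301S libraries, relative to the mean of all 12.

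Loci on chromosomes 2 and 3 separated the genotypes without overlap, and mouse tau did not. Mapt encodes mouse tau (chromosome 11, 104231390 to 104332090, GRCm38). It ran from 643 through a median of 683 to 735 CPM in WT and from 611 through 671 to 759 CPM in P301S, and its difference of -0.03 (SE 0.0519) was not called (adjusted p = 0.837). The labels do not tell whether reads of the transgene could be counted at mouse Mapt. Lamr1-ps1, a pseudogene beside the prion protein gene (chromosome 2, 131904086 to 131904959), had 0 counts in all 6 WT libraries and 56 to 87 counts in each P301S library. It was at least 134-fold higher in P301S, with WT set at a floor of 3 counts over the group. Prn, a gene model that spans the prion protein genes on the same chromosome (131909957 to 131956130), had 7 to 10 counts per WT library and 64 to 138 per P301S library, a log2 difference of 3.57 (SE 0.245, adjusted p = 1.92e-09). Of the length of Prn, 73.1% overlaps other genes, where reads were not counted. The prion promoter is used to drive several tau transgenes, but the labels do not name a promoter here.

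The other locus is a stretch of chromosome 3 with 3 long non-coding RNAs, which were chosen for description after their values were seen. Gm43049 (140692038 to 140760704) had 3 counts in the 6 WT libraries together and 358 in the 6 P301S libraries, a ratio of 109 (95% interval of counting error 37.1 to 532). Gm32754 (140904998 to 140917459) had 9 and 1152 counts, a ratio of 117 (61.5 to 257). For 4930590L14Rik (140951876 to 140953247) the counts were 1 and 230, a ratio of 211 (37.4 to 8350). Each of the 6 P301S libraries was above each of the 6 WT libraries for all 3 RNAs. The next large gene on that chromosome, Unc5c, a netrin receptor, had 11064 and 11440 counts, a ratio of 0.947 after scaling. The insertion site of the transgene is not given in the labels, and whether it lies there was not tested.

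Across the genome, 333 genes (1.87% of those tested) differed between P301S and WT in hypoxia. Of these, 94 were higher in P301S (0.528%) and 239 were lower (1.34%). The differences were small: the median size of a called difference was 0.304 on the log2 scale, the median of the higher genes was 0.27, that of the lower genes was -0.32, and 13 genes exceeded 1 in either direction. The levels of P301S and WT libraries did not overlap for 172 of the called genes, while such a separation occurred for 1.93% of all tested genes. At an unadjusted p below 0.05 there were 3232 genes. The number of calls rested on which libraries were used: leaving out 1 library at a time gave 91 (without WT replicate 2) to 618 (without P301S replicate 6) calls, and 83 of the 333 genes (17 higher, 66 lower) were called in every one of these 12 fits. Without the 6 libraries lowest in choroid markers, which leaves fewer samples, 16 genes were called, 12 of them among the 333. With the choroid score as a covariate, 452 genes were called, and these held all 333.

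The higher genes included 2 of 16 tested genes of a glucocorticoid list and 3 of 28 tested immediate early genes, Ptgs2 among the latter. Ptgs2 encodes cyclooxygenase-2, the inducible enzyme that makes prostaglandins and is present in excitatory hippocampal neurons (chromosome 1, 150100031 to 150108227). It ran from 14.9 through 20.5 to 23.6 CPM in WT and from 27.8 through 28.7 to 33.99 CPM in P301S. Every P301S library was above every WT library, and the difference of 0.58 (SE 0.0958, adjusted p = 0.00345) was called in all 12 fits that left out 1 library. Of the 16 tested genes of the glucocorticoid list, 2 were higher (all tested genes 0.528%) and none was lower. The list holds the receptor genes Nr3c1 and Nr3c2 beside targets of the receptor. Differences were positive for 10 and negative for 6, with a median of 0.10 against 0.000417 over all tested genes. Zbtb16, a transcription factor induced by glucocorticoids, ran from 92.2 through 105 to 117 CPM in WT and from 125 through 137 to 157 CPM in P301S, again without overlap (log2 difference 0.41, SE 0.0829, adjusted p = 0.0145). Pdk4, a kinase that shuts down pyruvate dehydrogenase when fat is burned, was higher by 0.49 (SE 0.112, adjusted p = 0.025). Its groups overlapped at their edge, 8.94 to 11.1 CPM in WT and 10.8 to 18.8 CPM in P301S. The call of Pdk4 was lost in 6 of the 12 fits that left out 1 library, that of Zbtb16 in none. Sgk1, a kinase induced by the same hormone, missed the threshold with 0.43 (SE 0.114, adjusted p = 0.0503). Its highest value, 120 CPM in P301S replicate 5, stood far above the other 5 P301S libraries.

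**Figure D1:**
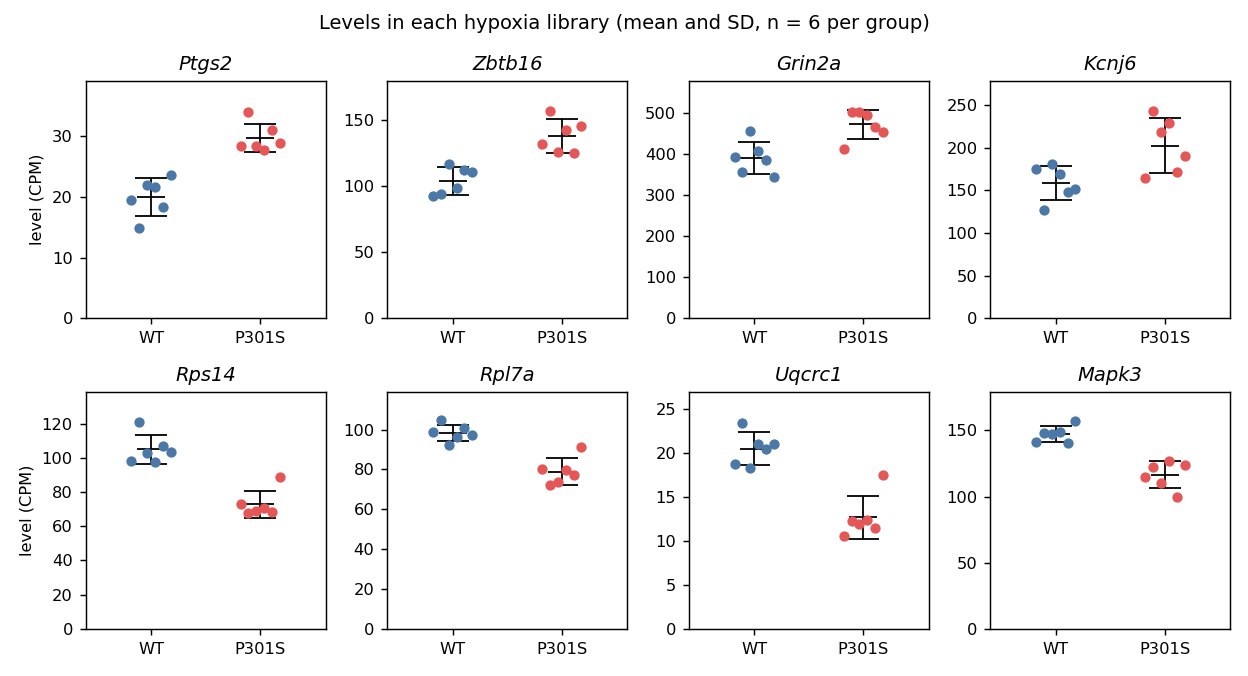
Level in CPM (vertical axis, from 0) of 8 genes in each of the 6 WT and 6 P301S hypoxia libraries, with the mean and SD of each group as lines. The P301S points lie above all WT points for Ptgs2 and Zbtb16 and below all WT points for Rps14, Rpl7a, Uqcrc1 and Mapk3, while the groups overlap for Grin2a and Kcnj6.

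Immediate early genes are switched on within minutes of neuronal firing. Of 28 tested, 3 were higher in P301S (Ptgs2, Homer1 and Egr3) and none was lower, where 0.528% of all tested genes were higher. Differences were positive for 16 and negative for 12, and the median was 0.09. Homer1 encodes a scaffold of metabotropic glutamate receptors and ran from 86.7 through 103 to 117 CPM in WT and from 112 through 132 to 133 CPM in P301S (0.30, SE 0.0787, adjusted p = 0.0458). Egr3, a zinc finger factor of the activity response, ran from 73.0 through 83.6 to 92.5 CPM in WT and from 83.9 through 106 to 117 CPM in P301S (0.29, SE 0.0767, adjusted p = 0.0482). The fast responders of the list, Fos, Arc and Npas4 among them, were not called. Both Homer1 and Egr3 lay close to the threshold and lost their calls in 9 and 8 of the 12 fits without 1 library. Counts cover whole gene bodies, introns included, so the transcript forms of Homer1 are not told apart.

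Many activity genes carry cyclic AMP response elements, which the factor CREB binds, close to their start. The 250 bases before the RefSeq start of Homer1 are shown because they hold 3 copies of the half-site TGACG, searched on both strands and given in capitals (GRCm38.p6).
Homer1, chr13:93303507-93303756, plus strand: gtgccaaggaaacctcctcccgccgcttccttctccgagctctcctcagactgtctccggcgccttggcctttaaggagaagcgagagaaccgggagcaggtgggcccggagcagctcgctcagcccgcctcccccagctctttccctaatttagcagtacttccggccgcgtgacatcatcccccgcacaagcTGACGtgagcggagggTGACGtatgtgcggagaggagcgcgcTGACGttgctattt
At least 1 copy of TGACG occurs in 17.86% of the 27025 promoters of this length and at least 3 in 0.7%. The same stretch of Ptgs2 held none. Of the 75 called higher genes with an entry, 17.3% held the half-site, and of the 141 called lower genes with an entry, 36.2%.

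Channel and glutamate receptor genes had mostly positive differences of small size, with few calls, and GABA and presynaptic genes less one-sided ones. Of 38 tested potassium, calcium, sodium and HCN channel genes, 37 had a positive difference (all tested genes, 8908 of 17788), with a median of 0.15. In normoxia the median was 0.136 and 6 were called higher (all tested genes 2.57%). In hypoxia 1 was called higher (all tested genes 0.528%). That gene is Kcnj6, a G protein-gated potassium channel, at 127 through 160 to 181 CPM in WT and 164 through 204 to 242 CPM in P301S (0.35, SE 0.0923, adjusted p = 0.0475). The channel list's mean log2 level was below the mean of the 12 libraries in all 6 WT libraries (-0.179 to -0.0179) and above it in all 6 P301S libraries (0.00681 to 0.145). Of 34 glutamate receptor and postsynaptic scaffold genes, 32 were positive, with a median of 0.12 (normoxia 0.0703, 3 called higher). In hypoxia 3 were called higher (all tested genes 0.528%): Homer1, which is also in the immediate early list, Homer2 and Grin2a. Grin2a, a subunit of the NMDA receptor, ran from 343 through 390 to 455 CPM in WT and from 412 through 479 to 503 CPM in P301S (0.27, SE 0.0651, adjusted p = 0.0299). Homer2, a relative of Homer1, was higher by 0.34 (SE 0.0839, adjusted p = 0.0377), with overlapping groups. Of 21 GABA genes, 12 were positive, with a median of 0.04. Called higher was 1 of them (all tested genes 0.528%): Gabbr2, a subunit of the metabotropic GABA receptor (0.24, SE 0.0617, adjusted p = 0.0434). Of 31 presynaptic release genes, 20 were positive, with a median of 0.04. None was called by edgeR, 6 had an unadjusted p below 0.05, DESeq2 called 1 and limma-voom none. No call of Kcnj6, Grin2a, Homer2 or Gabbr2 remained once the trend of log2 counts with gene length and GC content was removed from each library, or without WT replicate 2.

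Proteins that bind microtubules, tau's own family of functions, showed 1 higher and 1 lower gene among 20 tested (all tested genes 0.528% and 1.34%). Map2, the dendritic microtubule protein, was higher by 0.26 (SE 0.0692, adjusted p = 0.0497), at 1052 through 1239 to 1478 CPM in WT and 1410 through 1490 to 1707 CPM in P301S. Stmn3, a stathmin that sequesters tubulin, was lower by 0.26 on the log2 scale (SE 0.0599, adjusted p = 0.0256), from a WT range of 251 to 298 CPM to 213 to 252 CPM. The groups overlapped at their edges for both genes, and the calls of Map2 and Stmn3 were lost in 9 and 6 of the 12 fits without 1 library. That of Map2 was also lost with RLE scaling and with legacy dispersions. Among 27 genes of tau kinases and phosphatases, 1 was called (all tested genes 1.87%). Mapk3, which encodes ERK1 (chromosome 7, 126759601 to 126765819), ran from 140 through 148 to 157 CPM in WT and from 99.9 through 119 to 127 CPM in P301S. All P301S libraries were below all WT libraries, and the difference of -0.34 (SE 0.0534, adjusted p = 0.00178) stayed called in every alternative fit. Gsk3b, a main tau kinase, did not overlap between the groups either, at 198 to 226 CPM in WT and 228 to 238 CPM in P301S, but its difference of 0.13 (SE 0.0454) was not called (adjusted p = 0.118).

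Ribosomal protein genes gave the most calls of any list, all of them lower in P301S. Of 38 tested genes of cytosolic ribosomal proteins, all 38 had a negative difference, with a median of -0.22, and 12 were called lower (all tested genes 1.34%). Over all 76 tested genes with a ribosomal protein symbol, 17 (22.4%) were lower and none higher, with a median of -0.21, and 3 had a positive difference that was not called (Rpl21, Rps15a and Rpl3l). In normoxia 23 of the 38 were called lower (all tested genes 3.78%), with the same median. Rps14, of the small subunit, ran from 97.5 through 103 to 121 CPM in WT and from 67.6 through 69.8 to 88.6 CPM in P301S. The groups did not overlap, and the difference of -0.53 (SE 0.0775, adjusted p = 0.000924) stayed called in every alternative fit. Rpl7a, of the large subunit, ran from 92.3 through 98.1 to 105 CPM in WT and from 72.0 through 78.5 to 91.1 CPM in P301S (-0.32, SE 0.0557, adjusted p = 0.0048). Rpl18, of which 47.3% overlaps another gene, differed by -0.54 (SE 0.0831, adjusted p = 0.00131). The remaining called genes, Rpl32, Rpsa, Rpl6, Rpl14, Rps6, Rpl13a, Rpl19, Rplp0 and Rps9, differed by -0.46 to -0.23. Rpl13a is 88.6% overlapped and is uncertain. Of the 12, 7 stayed called after the length and GC trend was removed and 1 without the 6 choroid-poor libraries. On the mean log2 level of the list the groups overlapped, since WT replicate 3 (-0.0271) lay below P301S replicate 6 (0.0194).

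Transcripts of ribosomal proteins start with a run of pyrimidines (C or T), the terminal oligopyrimidine tract, through which the mTOR pathway sets their translation. Windows of 30 bases around the RefSeq start (15 before, 15 from the start on; GRCm38.p6) are shown for 6 of the 10 called genes with an entry, those whose longest run of C and T on the transcript's strand, in capitals, has at least 8 bases.
Rpl7a, chr2:26910792-26910821, plus strand: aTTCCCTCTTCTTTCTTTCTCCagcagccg
Rpl14, chr9:120571502-120571531, plus strand: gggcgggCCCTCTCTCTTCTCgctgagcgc
Rpl18, chr7:45718056-45718085, plus strand: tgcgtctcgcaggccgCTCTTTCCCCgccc
Rps6, chr4:86857353-86857382, minus strand: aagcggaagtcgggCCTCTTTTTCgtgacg
Rps9, chr7:3704026-3704055, plus strand: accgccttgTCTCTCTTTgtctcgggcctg
Rpl13a, chr7:45128731-45128760, minus strand: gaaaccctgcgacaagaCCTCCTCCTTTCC
The runs in the 10 genes were 5 to 21 bases long. A run of at least 8 bases occurs in the same window of 11.9% of 27025 promoters, where the median longest run is 4.

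Pseudogenes of the same proteins were lower as well. Of 48 tested genes named as ribosomal protein pseudogenes, 16 (33.3%, all tested genes 1.34%) were called lower and none higher, with a median of -0.53. Rpl19-ps11 ran from 6.77 through 8.44 to 8.84 CPM in WT and from 4.49 through 4.85 to 6.12 CPM in P301S (-0.70, SE 0.0936, adjusted p = 0.000316). Rpl31-ps8 differed by -0.53 (SE 0.0798, adjusted p = 0.00115), and Rps15a-ps7 (-1.14), Rpl9-ps7 (-0.70), Rpl9-ps4 (-0.69), Rpl9-ps6 (-0.67) and Rpsa-ps2 (-0.66) were among the lower genes with the largest differences. The calls of these last 5 were lost in 8, 8, 6, 9 and 4 of the 12 fits without 1 library. Those of Rpl19-ps11 and Rpl31-ps8 were lost in none. Such copies are nearly identical to their parent genes, so reads could have been split between the copies and the parents, and these values are uncertain. Pseudogenes of other genes were also more often lower (51 of 841, 6.06%) than higher (2). Among the lower were Gpx4-ps2 (-0.62, SE 0.106, adjusted p = 0.00408), Hmgb1-ps2 (-0.67) and Rbm3-ps (-0.61). Their calls were lost in 0, 7 and 9 of the 12 fits without 1 library. Ftl1-ps1, which the annotation types as protein coding despite its name, differed by -0.81. Of 1940 long non-coding RNAs, 11 were higher, a share of 0.567% that is near the 0.528% of all tested genes and includes the 3 RNAs of chromosome 3, and 1 was lower.

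Nuclear genes of the respiratory chain gave the next most calls, again lower. Of 38 tested, 35 had a negative difference, with a median of -0.16, and 10 were called lower (all tested genes 1.34%), none higher. In normoxia 26 of the 38 were called lower (all tested genes 3.78%), with a median of -0.225. Uqcrc1, a core protein of complex III (chromosome 9, 108936633 to 108949623), ran from 18.3 through 20.7 to 23.4 CPM in WT and from 10.6 through 12.1 to 17.5 CPM in P301S. It did not overlap and showed the largest difference of the list, -0.69 (SE 0.12, adjusted p = 0.00409). Ndufv2 of complex I ran from 90.3 through 94.7 to 99.8 CPM in WT and from 74.3 through 78.2 to 89.5 CPM in P301S (-0.25, SE 0.0453, adjusted p = 0.0066). Others were the complex I genes Ndufb9, Ndufb8 and Ndufs8, Uqcrh of complex III, Cox5b of complex IV, and Atp5b and Atp5c1 of ATP synthase, at -0.30 to -0.17. Ndufb8 is 62% overlapped and uncertain. Once that trend was removed 4 of the 10 stayed called, and none did without the choroid-poor libraries. The 15 genes of the mitochondrial genome did not follow: mt-Nd4 (0.22, SE 0.0569, adjusted p = 0.0482) and mt-Nd1 (0.21, SE 0.0554, adjusted p = 0.0497) of complex I were higher, mt-Co2 of complex IV was lower (-0.34, SE 0.0719, adjusted p = 0.0169), and the median was 0.14. None of these 3 calls remained in the fit of the 12 hypoxia libraries alone.

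**Figure D2:**
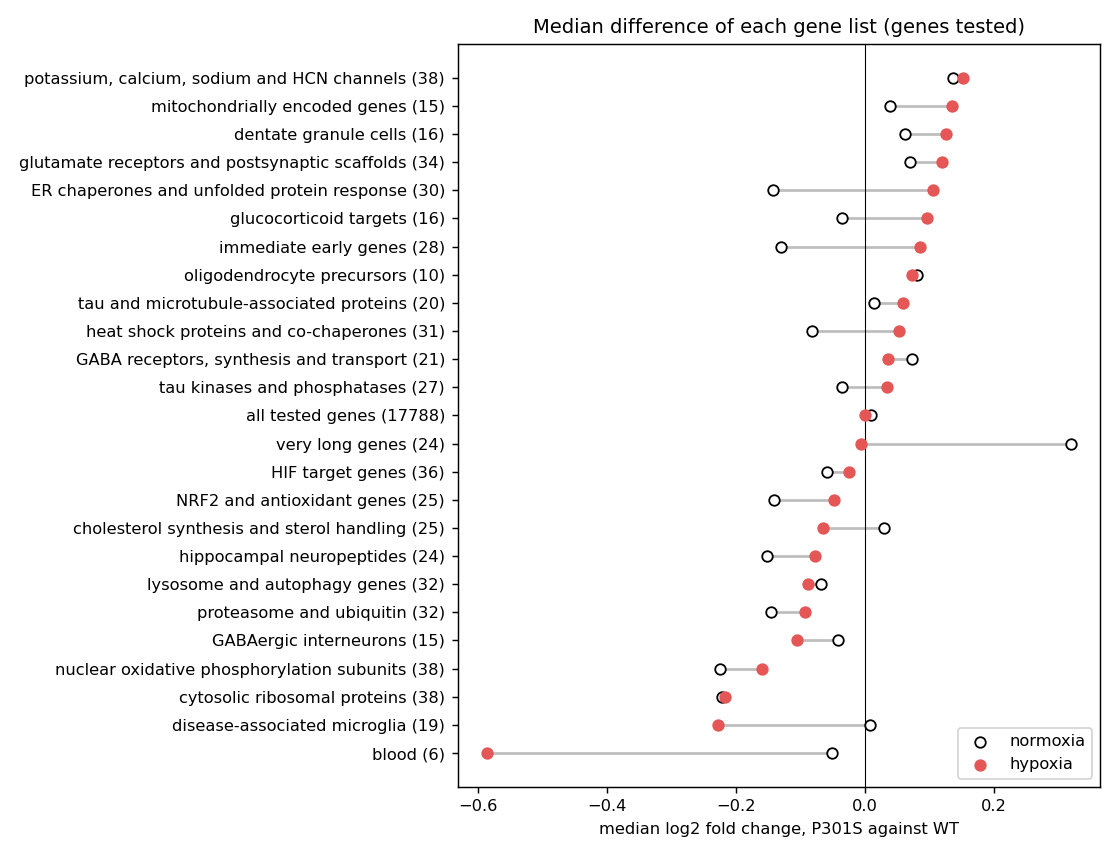
Median log2 fold change of P301S over WT (horizontal axis) for gene lists with the number of tested genes in brackets, in hypoxia (filled) and normoxia (open), joined by a line. Ribosomal protein genes sit at -0.22 in both conditions, while ER chaperone genes move from -0.14 in normoxia to 0.11 in hypoxia and very long genes from 0.32 to -0.01.

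Genes of protein disposal, antioxidant defence and metabolism gave scattered lower calls, 1 or 2 per list, where 1.34% of all tested genes were lower. In normoxia 3.78% of all tested genes were called lower. The counts there were 10 for proteasome and ubiquitin, 3 for lysosome and autophagy, 5 for antioxidant, 6 for HIF and 1 for cholesterol genes. Whether any of these lists differs from all genes was not tested. Of 32 proteasome and ubiquitin genes, Ubb, a polyubiquitin gene (-0.24, SE 0.0572, adjusted p = 0.0312), and Psmc5, an ATPase of the proteasome cap (-0.19, SE 0.0428, adjusted p = 0.0256), were lower, with a list median of -0.09. Of 32 lysosome and autophagy genes, 1 was lower: Gabarap, a protein of the autophagosome membrane, at 88.5 to 109 CPM in WT and 77.5 to 86.0 CPM in P301S without overlap (-0.25, SE 0.0472, adjusted p = 0.00854). Of 25 genes of the NRF2 and antioxidant list, Gpx4, which reduces lipid peroxides (-0.41, SE 0.0925, adjusted p = 0.0241), and Prdx5, a peroxiredoxin (-0.27, SE 0.0611, adjusted p = 0.0244), were lower. Hmox1, Nqo1 and Srxn1 of the same list were not called, and NRF2 activity was not tested. In the 12 fits without 1 library, the call was lost in 7 for Ubb, 5 for Psmc5, 5 for Gpx4 and 6 for Prdx5. Of 36 HIF targets, 1 was lower, the glycolytic enzyme Tpi1 (-0.22, SE 0.0579, adjusted p = 0.0485), and the median was -0.02. No other target was called by edgeR or limma-voom, Vegfa and Slc2a1 included, while DESeq2 called Tpi1 and Ldha lower. The call of Tpi1 was lost in 9 of 12 fits without 1 library. In the list of cholesterol genes, Mvk, a kinase of the mevalonate pathway, was lower (-0.28, adjusted p = 0.0452), a call lost in 8 of these fits. Akr1a1, an aldehyde reductase outside these lists, had one of the lowest p-values, at 205 through 212 to 236 CPM in WT and 161 through 168 to 200 CPM in P301S (-0.31, SE 0.0522, adjusted p = 0.00378).

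Of the 7 genes whose genotype difference was called as changed between hypoxia and normoxia, 2 belong to the ER list, Hspa5 and Calr. The median of the ER list was -0.14 in normoxia and 0.11 in hypoxia; the medians of immediate early (-0.13 and 0.09), heat shock (-0.08 and 0.05) and glucocorticoid (-0.04 and 0.10) genes also had opposite signs, and whether the lists differ in this was not tested. Hspa5 encodes BiP, the main Hsp70 of the ER and a sensor of unfolded proteins (chromosome 2, 34771970 to 34777547). In normoxia it ran from 241 through 298 to 348 CPM in WT and from 187 through 206 to 259 CPM in P301S, and was lower by 0.44 on the log2 scale (SE 0.109, adjusted p = 0.0196). In hypoxia it ran from 201 through 226 to 237 CPM in WT and from 230 through 282 to 372 CPM in P301S, a difference of 0.37 (SE 0.103) that was not called (adjusted p = 0.0646). The test of the change in the difference (interaction, hypoxia minus normoxia) gave 0.81 (SE 0.15, adjusted p = 0.0435). Calr, calreticulin, a calcium-binding chaperone for glycoproteins, had the same signs and smaller differences: -0.34 in normoxia (adjusted p = 0.00554), 0.19 in hypoxia (adjusted p = 0.106) and 0.53 (SE 0.0917, adjusted p = 0.0407) for the interaction. Of the 30 tested ER genes, 12 were called lower in normoxia (all tested genes 3.78%) and 1 in hypoxia (all tested genes 1.34%). The latter was Atf4 (-0.36, SE 0.0943, adjusted p = 0.0497), which encodes a factor of the integrated stress response rather than a chaperone. Its call was lost in 9 of 12 fits without 1 library. The interaction was positive for 24 of the 30 and for 49.2% of all tested genes, with a median of 0.14 over the list.

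**Figure D3:**
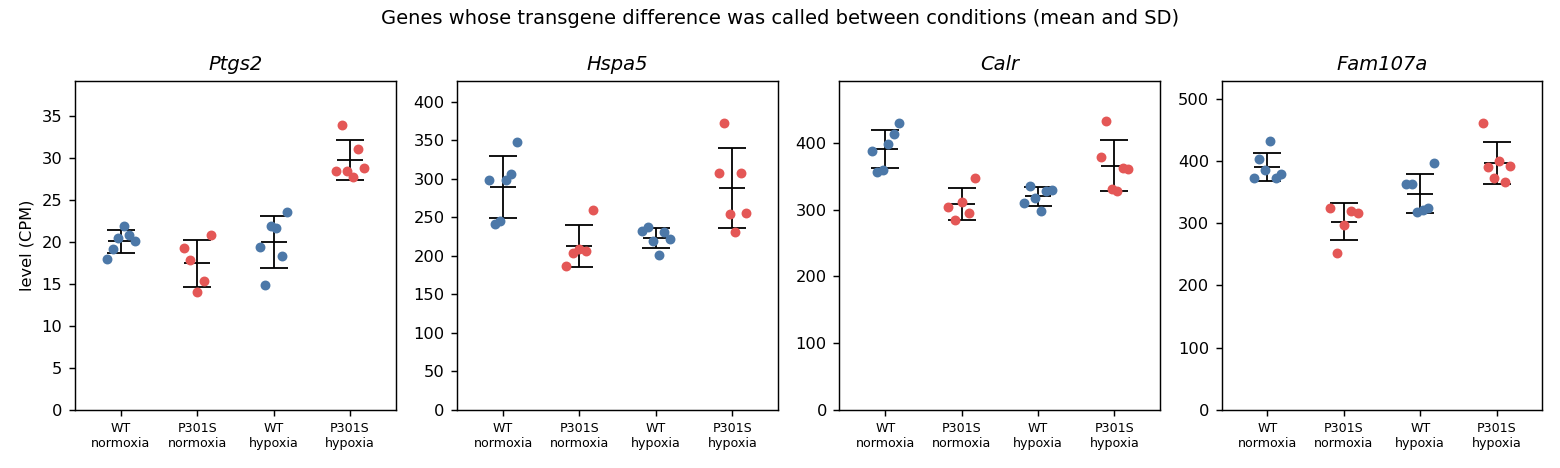
Level in CPM (vertical axis, from 0) of Ptgs2, Hspa5, Calr and Fam107a in every library of the 4 groups (6, 5, 6 and 6 libraries), with the mean and SD as lines. For Hspa5, Calr and Fam107a the P301S group is the lower one in normoxia and the higher one in hypoxia, and the P301S hypoxia libraries of Ptgs2, at 27.8 to 33.99 CPM, lie above all other libraries.

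Promoters of ER chaperones carry the ER stress element, bound by NF-Y together with ATF6. The 250 bases before the RefSeq starts of Hspa5 and Calr are shown because these are the ER genes with a called interaction. The search was for CCAAT and CCACG parted by 9 bases, on either strand, and the capitals mark the match (GRCm38.p6).
Hspa5, chr2:34771840-34772089, plus strand: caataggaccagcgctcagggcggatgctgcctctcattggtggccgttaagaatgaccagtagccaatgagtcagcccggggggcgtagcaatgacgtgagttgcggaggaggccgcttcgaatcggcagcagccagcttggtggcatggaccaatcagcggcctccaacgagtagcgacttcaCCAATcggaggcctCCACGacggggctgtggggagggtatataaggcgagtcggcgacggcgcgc
Calr, chr8:84846932-84847181, minus strand: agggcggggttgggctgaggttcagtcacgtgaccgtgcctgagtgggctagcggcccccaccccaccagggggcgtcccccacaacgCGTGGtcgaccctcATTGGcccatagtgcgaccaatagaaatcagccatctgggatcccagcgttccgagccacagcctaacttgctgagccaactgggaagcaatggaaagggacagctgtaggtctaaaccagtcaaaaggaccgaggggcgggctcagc
The element has 1 match in each, read from the other strand in Calr, and occurs in 0.12% of 27025 promoters. Of the 27 ER genes with an entry, 8 hold it: Hspa5, Calr, Hsp90b1, Canx, Pdia6, Dnajc3, Creld2 and Syvn1. All 8 had a positive interaction, with a median of 0.43. So did 16 of the other 22 tested ER genes, with a median of 0.08. These include the genes with no promoter entry, which were not searched. The sets overlapped: the 8 ran from 0.17 (Canx) to 0.81 (Hspa5), the other 22 from -0.26 (Trib3) to 1.16 (Sdf2l1, the largest of the list). Whether the element has a part in the interaction was not tested. No match was found in the 75 called higher or the 141 called lower genes with an entry.

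In all, 7 genes (0.0394%) had a called interaction, all at adjusted p = 0.0407 except Hspa5. Besides Hspa5 and Calr they were Ptgs2, Fam107a, Akr1e1, Mybpc2 and H2-Q2. Fam107a, an actin-bundling protein induced by stress and glucocorticoids, differed by -0.37 in normoxia (adjusted p = 0.00509) and by 0.19 in hypoxia (adjusted p = 0.131). Ptgs2 did not differ in normoxia by the test (-0.20, SE 0.103, adjusted p = 0.246), where WT ran from 17.9 to 21.9 CPM and P301S from 14.0 to 20.8 CPM. Akr1e1, an aldo-keto reductase, had the largest difference among the higher genes named by the rule, after Lamr1-ps1 and Prn: 4.26 through 8.46 to 12.5 CPM in WT and 12.0 through 18.3 to 27.3 CPM in P301S (1.15, SE 0.255, adjusted p = 0.024). In normoxia it was lower by 0.87 on the log2 scale (adjusted p = 0.0443). Mybpc2 and H2-Q2 stayed under 1 CPM in all libraries. These 7 calls were fragile: edgeR's legacy dispersions and limma-voom each gave 0 (1650 and 1654 genes at an unadjusted p below 0.05, against 1678), and DESeq2 gave 49, which held all 7.

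Most of the difference was in the same direction in both conditions. Of the 333 genes called in hypoxia, 311 (93.4%) had the same sign in normoxia, against 63.2% of all tested genes. The comparison in normoxia shares no library with that in hypoxia, though both use 1 estimate of the spread. Of 1130 genes called in normoxia (6.35%), 135 were called in both, which is 40.5% of the hypoxia list and 11.9% of the normoxia list, and 134 of these had the same direction. The shared calls were mainly of lower genes: 121 of the 239 lower genes and 13 of the 94 higher genes were called in normoxia in that direction. The median normoxia difference was -0.26 for the lower genes and 0.10 for the higher ones. The size of the called differences (median 0.304 in hypoxia, 0.306 in normoxia) and the median SE (0.0974 and 0.101) were close. A list of 24 very long genes, such as Lsamp and Dmd, showed 14 higher genes (all tested genes 2.57%) and a median of 0.32 in normoxia. In hypoxia edgeR, DESeq2 and limma-voom called none of them (4 at an unadjusted p below 0.05) and the median was -0.01, but the interaction was called for none.

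**Figure D4:**
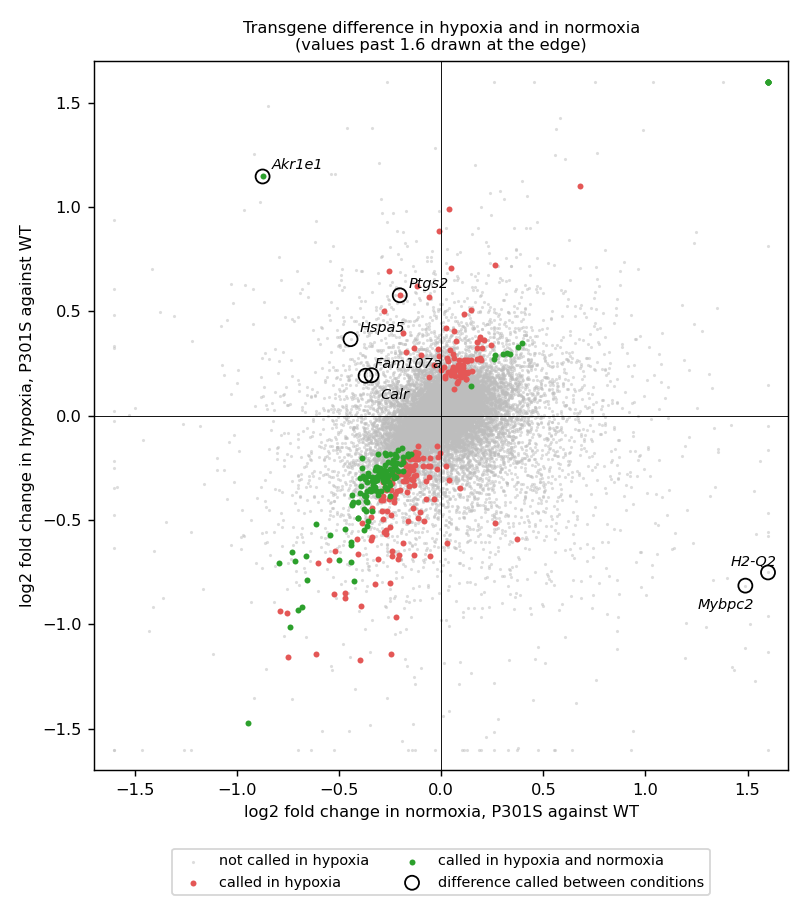
Log2 fold change of P301S over WT in hypoxia (vertical axis) against that in normoxia (horizontal axis) for all 17788 tested genes, coloured by calls, with the 7 genes of called interaction circled and named. Of the 333 called genes, 311 lie where the sign is the same in both conditions.

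The balance of higher and lower calls differed along gene length. Among the 1779 shortest tested genes (gene body up to 2915 bases), 4 were higher and 101 lower in P301S, with a median of -0.12. Among the 1779 longest (from 131874 bases), 44 were higher and 1 lower, with a median of 0.08. Spearman's rank correlation of the difference with gene-body length over the 17788 genes, a description since genes are not independent, was 0.269 in hypoxia and 0.4 in normoxia. Ribosomal and respiratory chain genes are mostly short, and channel and synapse genes mostly long. The part of length in their differences was not tested apart from the removal of the trend, after which 131 genes were called, 27 higher and 104 lower, 108 of them among the 333.

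**Figure D5:**
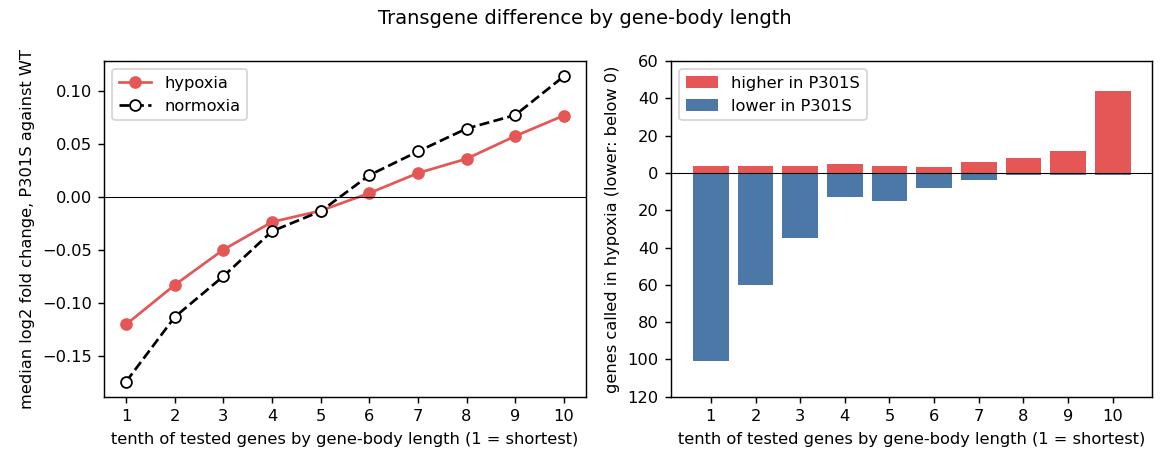
Left, median log2 fold change of P301S over WT (vertical axis) for tested genes in 10 bins ordered by gene-body length, in hypoxia and normoxia. Right, number of genes called higher (above 0) and lower (below 0) in hypoxia per bin, from 4 higher and 101 lower in the shortest bin to 44 higher and 1 lower in the longest.

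Cell type markers gave few calls, where 0.528% of all tested genes were higher and 1.34% lower. In bulk tissue, fewer cells of a type and less RNA per cell cannot be told apart. Of 15 tested interneuron markers, 1 was lower: Cort, cortistatin, a peptide of a small class of interneurons, at 2.56 through 4.23 to 5.23 CPM in WT and 1.73 through 2.25 to 2.46 CPM in P301S without overlap (-0.94, SE 0.213, adjusted p = 0.0241). Sst, the related somatostatin gene, was not called (-0.21, adjusted p = 0.27). Olig2, a transcription factor of the oligodendrocyte lineage, was higher by 0.40 (SE 0.105, adjusted p = 0.0498), alone among 10 precursor markers, and Rfx3 was higher by 0.33 (SE 0.085, adjusted p = 0.0478), alone among 16 dentate granule markers. Both calls were lost in 9 of the 12 fits without 1 library, and that of Cort in 4. Of 19 genes of disease-associated microglia, a state seen around aggregates, none was called by edgeR, DESeq2 or limma-voom, with 4 at an unadjusted p below 0.05 and a median of -0.23. Homeostatic microglia, astrocyte, reactive astrocyte and myelin lists of 15, 17, 10 and 18 tested genes had no call by any of these 3 tools, and 0, 2, 0 and 0 genes at an unadjusted p below 0.05. The 16 choroid plexus markers had no call either and none at an unadjusted p below 0.05. None of the 6 tested blood genes was called by edgeR, and 3 had an unadjusted p below 0.05. Hbb-bt, a beta globin, ran from 5.68 through 8.11 to 24.3 CPM in WT and from 3.17 through 4.95 to 7.02 CPM in P301S (-1.21, SE 0.333, adjusted p = 0.0617). DESeq2 called 2 of these genes lower and limma-voom none.

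Other genes named for the size or the p-value of their difference belong to none of the lists. Higher in P301S were Thap6 (0.72), Zfp933 (0.69), Lonrf3 (0.57, SE 0.103, adjusted p = 0.00585), the protease gene Prss23 (0.50), Ccdc71l (0.42), Dscaml1, a neuronal adhesion molecule (0.38), Zbtb20, a transcription factor of hippocampal pyramidal neurons (0.37), and the nucleoside transporter gene Slc29a3 (0.36). In the 12 fits without 1 library, the call was lost in 9 for Thap6, 10 for Zfp933, 8 for Prss23, 6 each for Zbtb20 and Slc29a3, 5 for Dscaml1, 2 for Ccdc71l and 0 for Lonrf3. Lonrf3 separated the groups, at 11.03 through 13.8 to 14.8 CPM in WT and 17.5 through 19.8 to 24.5 CPM in P301S. Zbtb20 was the most abundant of these, at 385 through 426 to 544 CPM in WT and 468 through 576 to 642 CPM in P301S, with overlap. Lower were 1700047I17Rik2 (-0.97), Ldoc1 (-0.67), Plp2 (-0.67) and Cuedc2 (-0.31, SE 0.0513, adjusted p = 0.00299), of which 43.9% overlaps another gene. The values of the first 3 of these ran below 6 CPM in all 12 libraries and did not overlap between the groups. In the 12 fits without 1 library, the call was lost in 7 for Plp2, 4 for 1700047I17Rik2 and 0 for Ldoc1 and Cuedc2. Once the length and GC trend was removed, Ldoc1 and Plp2 were not called.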

How the data were processed

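Hippocampal RNA-seq of 23 libraries was used, 12 of them from hypoxia. The authors deposited unnormalized counts for each gene and, per the file headers, obtained them from paired reads with featureCounts 1.6.2 over whole gene bodies, introns included, with the Ensembl annotation of GRCm38 and no strand setting, from alignments with duplicates removed. Reads from overlapping genes, antisense partners included, are dropped by that tool's default, and near-identical copies share reads. The submitters' processing notes name HISAT2, mm10 and DESeq2 1.6.3. Removal of duplicates can lower short abundant transcripts.

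Of 52636 genes, 52489 had a symbol. Genes were kept by filterByExpr (minimum count 10), which left 17788 and removed 0.0539% to 0.0881% of counts. edgeR 4.0.16 in R 4.3.3 fitted 4 group means to all 23 libraries (TMM scaling, robust quasi-likelihood, default dispersions), with two-sided tests of P301S against WT in hypoxia, in normoxia and of their difference. limma 3.58.1 (voom) and DESeq2 1.42.0 were alternatives. On simulated data for the hypoxia comparison (17788 genes) 36% of genes changed 1.25-fold were recovered, 59.2% at 1.5-fold, 76% at 2-fold and 96% at 4-fold, with 8 false calls. Replicates were numbered in accession order and pair nothing.

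Named genes are the transgene loci, the called genes of largest difference (up to 15 in each direction, mean of at least 1 CPM, no predicted name), the 10 with the lowest p, and up to 4 of lowest p per list. The 43 lists (906 of 956 entries tested) and the comparison were chosen with earlier results of these data known. Promoter sequences are RefSeq's. Count floors (3 counts) and 95% intervals cover counting error alone. Some list members are not reported here.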

Additional observations from a re-analysis of the deposited data

Results flagged for a closer look

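A library was marked where its gap to the nearest of the other 5 of its group exceeded 0.625 of the group's whole range (Dixon's test), which chance gives in about 1 of 20 groups. Of 234 groups of values (117 genes in 2 groups), 20 were marked. P301S hypoxia replicate 6 was the highest of its group for 5 genes: Uqcrc1 at 17.46 CPM (others at most 12.34), Rps14 at 88.62 CPM (73.3), Gpx4 at 96.92 CPM (76.59), Gpx4-ps2 at 14.33 CPM (11.16) and Rpl9-ps6 at 5.948 CPM (4.166), all genes called lower in P301S. WT replicate 2 was the highest for Zfp933 (22.11 CPM) and Akr1a1 (236.2 CPM) and the lowest for Lonrf3 (11.03 CPM). WT replicate 3 was the lowest for Psmb4 (72.81 CPM) and Dusp1 (10.16 CPM) and the highest for Rfx3 (172 CPM). WT replicate 1 held the highest Gabrd (78.58 CPM, others at most 37.9) and Pvalb (71.96 CPM, others at most 28.89), and WT replicate 4 the highest 1700047I17Rik2 (5.498 CPM). Among P301S libraries, replicate 1 was the highest for Penk (24.65 CPM) and Fam107a (462 CPM), replicate 2 for Pdzd2 (138.4 CPM) and replicate 5 for Sgk1 (120.1 CPM). The RNA 4930590L14Rik was highest in WT replicate 6 (0.04202 CPM, the only WT library above 0) and in P301S replicate 3 (2.104 CPM).

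The genotype difference itself differed between hypoxia and normoxia for 7 genes by edgeR's interaction test. The change on the log2 scale, hypoxia minus normoxia, was 0.8104 for Hspa5, 0.5342 for Calr, 0.5617 for Fam107a, 0.7798 for Ptgs2, 2.02 for Akr1e1, -4.419 for H2-Q2 and -2.304 for Mybpc2.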

How the results depend on the processing

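Against 333 genes called in hypoxia, the count was 182 with the 12 hypoxia libraries alone, 847 by DESeq2 (347 higher, 500 lower), 213 with no filter on low counts, 131 with the length and GC trend removed, 16 without the 6 libraries lowest in choroid markers and 57 with WT hypoxia libraries of title number 31 alone. The last 2 use fewer libraries. RLE scaling, limma-voom, a minimum mean of 1 CPM, the choroid covariate and edgeR's legacy dispersions gave 335 to 455. Leaving out 1 library gave 91 to 618: without WT replicates 2, 3, 5 and 6 the counts were 91, 519, 185 and 192, and without P301S replicates 2 to 6 they were 130, 122, 159, 194 and 618. The 1130 genes of normoxia became 682 with no filter, 437 without the length and GC trend and 389 without the choroid-poor libraries. The 7 interaction genes became 49 by DESeq2, 13 with the choroid covariate, 4 with no filter, and 0 by limma-voom, with a minimum of 1 CPM, with the trend removed, without the choroid-poor libraries, with title number 31 alone and with legacy dispersions (1654, 1495, 1891, 1058, 1607 and 1650 genes at an unadjusted p below 0.05). Leaving out 1 library gave 0 to 6. The cause was not tested. The one reversal was H2-Q2 in hypoxia, a gene not called, at 0.0456 with title number 31 alone. Of 65 named called genes none reversed, and 8 remained called without the choroid-poor libraries, 31 with the trend removed and 34 with 12 libraries. The legacy dispersion fit was chosen after seeing the data, as was the use of the other alternatives for normoxia. No paired analysis was possible because the replicate numbers were given in accession order and the labels tie no sample to another. At these depths 36% of 1.25-fold changes were recovered in simulated data, so a missing call does not show that a gene did not differ.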
